A study of Homo sapiens with 4 samples.

Results

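The genes described here are 32 well-known transcriptional targets of p53, followed across the BRD8 binding maps of 2 human colorectal cancer lines. They were taken as a fixed list of names, 32 of 19974 protein-coding genes on chromosomes 1 to 22 and X, and all 32 were found in the gene table. HCT116 and SW480 are established lines with no stated treatment, HCT116 kept in McCoy's 5A and SW480 in Leibovitz's L-15 medium, both with added fetal bovine serum and antibiotics. Each line gave 1 library precipitated with a polyclonal antibody to BRD8 and 1 input library, and the peak list of each BRD8 library was analysed. Chromatin was fixed with formaldehyde and cut with micrococcal nuclease before precipitation. The p53 status of the lines, given below, is general knowledge that the sample labels do not state. With 1 library per line, p53 status cannot be told apart from any other difference between these lines or libraries, and no difference between them has a replicate check.

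p53 is a transcription factor that is held at a low level by the ubiquitin ligase MDM2 and accumulates after DNA damage or other stress. It binds a pair of adjoining decamers and switches on genes for cell cycle arrest, cell death, DNA repair and metabolism, together with genes that act back on p53 itself. BRD8 is a bromodomain subunit of the TIP60/NuA4 acetyltransferase complex, and in glioblastoma with wild-type p53 it has been described as holding p53 target genes shut. The comparison asks where BRD8 sits at these genes in HCT116, a line with wild-type p53, and SW480, a line with mutant p53. No RNA was measured, so the data do not say whether a gene was active.

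The HCT116 list held 22303 peaks and the SW480 list 12874 on these chromosomes, with a median fold enrichment of 3.70 and 3.34. Fold enrichment and −log10 q are the authors' own values for each peak, and both depend on the depth and input of a library. A summit pileup, the number of ChIP fragments over the summit, was recovered from the fold and the −log10 p of each peak. The lowest pileup in a list was 12 fragments in HCT116 and 13 in SW480, so weaker binding went unlisted, and a gene without a listed peak may still hold BRD8. A gene is called bound below when a summit lies within 1 kb of either end of the gene, and its value is that of the gene-end peak with the highest fold. As a check of tissue, EPCAM, KRT8 and CDX2 of 7 colon epithelial marker genes carried a HCT116 peak at an end (42.9%, beside 44.0% of all coding genes). In SW480 0 of the 7 carried one (Wilson interval 0 to 35.4%, counting error only), beside 22.1% of all coding genes. KRT8 also had peaks inside the gene, 7 in HCT116 and 2 in SW480. The HCT116 share was near the background and the SW480 interval included it, so these counts do not speak to tissue. Peaks measure no expression, so identity was not tested by them.

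RefSeq promoter sequences (GRCh38.p14, from 250 bases before to 50 after each listed start) were found for 26 of the 32 genes, with 37 starts in all. GADD45A, PHLDA3, RRM2B, TNFRSF10B, TP53INP1 and CMBL had no entry. A pair of p53 decamers was found in the 300-base window of 4 genes, AEN, DDB2, FAS and MDM2. The search took 2 decamers (each 3 purines, C, 2 bases of A or T, G and 3 pyrimidines), 0 or 1 base apart, with the C and G fixed and at most 2 mismatches elsewhere. The pattern reads alike on both strands. Such a pair was present in 5 of the 37 member windows (13.5%) and in 107 of 22132 windows of all coding genes (0.483%). The 4 pairs, written 5′ to 3′ on the strand of the gene, are shown because the peaks of the lines fall differently over them.
AEN: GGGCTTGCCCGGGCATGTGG
FAS: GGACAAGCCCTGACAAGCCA
DDB2: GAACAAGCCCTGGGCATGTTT
MDM2: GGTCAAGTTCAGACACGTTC

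The AEN pair lies at chr15:88621306-88621325, the FAS pair at chr10:88991309-88991328, the DDB2 pair at chr11:47214979-47214999 and the MDM2 pair at chr12:68808923-68808942 (plus strand in each case, GRCh38). The DDB2 match has 0 mismatches and 1 base between its decamers, and a second match with 1 mismatch overlaps it. HCT116 peak regions covered the pair at 4 of the 4 genes. SW480 regions covered it at 2, AEN and FAS. Over the 106 coding genes with such a pair in a window, the HCT116 regions covered it at 34.0% and the SW480 regions at 12.3%.

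At MDM2 the HCT116 region (chr12:68807184-68809827) ran across all 4 listed starts of the gene, and its summit lay 577 bp from the centre of the pair. The SW480 region (chr12:68808227-68808584) lay between the upstream and the downstream starts, covered none of the 4, and ended short of the pair. MDM2 is known to have an upstream promoter and a p53-responsive promoter in its first intron. The 250 bases before the start at position 68809017 (chr12:68808767-68809016, plus strand) hold the pair, in capitals, and carried a peak region in HCT116 alone.
MDM2: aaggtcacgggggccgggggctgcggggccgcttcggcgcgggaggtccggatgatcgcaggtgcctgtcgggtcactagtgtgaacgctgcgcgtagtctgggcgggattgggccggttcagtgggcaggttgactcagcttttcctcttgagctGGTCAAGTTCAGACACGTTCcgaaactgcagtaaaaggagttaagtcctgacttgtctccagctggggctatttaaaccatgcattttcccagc

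AEN is the contrasting case, with the pair inside the peak of both lines. Its 250 bases before the listed start at 88621340 (chr15:88621090-88621339, plus strand) hold the pair, in capitals, near their end. The HCT116 summit lay 49 bp and the SW480 summit 196 bp from the centre of that pair.
AEN: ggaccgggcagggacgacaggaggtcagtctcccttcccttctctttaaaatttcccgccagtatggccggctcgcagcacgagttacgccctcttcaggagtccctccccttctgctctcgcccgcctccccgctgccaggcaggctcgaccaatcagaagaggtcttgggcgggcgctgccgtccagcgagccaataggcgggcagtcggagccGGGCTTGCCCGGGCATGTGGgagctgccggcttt

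At DDB2 the HCT116 region (chr11:47213943-47216593) covered the pair with a summit 374 bp away. In SW480 the pair lay between 2 separate regions, and the nearer summit was 230 bp away. At FAS the summits were 275 bp away in HCT116 and 66 bp away in SW480. A match is a description of letters, and p53 binding was not measured.

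Gene-end BRD8 peaks were found at 22 of the 32 p53 targets in HCT116 and at 7 in SW480. The HCT116 share was 68.8% (95% Wilson interval 51.4 to 82.0, counting error only), beside 44.0% of all coding genes. The SW480 share was 21.9% (11.02 to 38.8), beside 22.1% of all coding genes, so by gene ends the SW480 targets stood at the background. By listed starts the SW480 count was higher, 11 of 26 targets (42.3%, beside 25.1%). The 7 genes bound in SW480 were CCNG1, DDB2, MDM2, PMAIP1, RPS27L, TIGAR and XPC, and each was also bound in HCT116, beside 20.3% of coding genes bound in both lines. Bound in HCT116 alone were 15 targets (46.9%, beside 23.7% of all coding genes). Bound in SW480 alone were 0 of 32, which allows a share of up to 9.38% (3 counts of the total), beside 1.81% of all coding genes. The other 10 targets (31.3%, beside 54.2%) were unbound at their ends in both lines.

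**Figure D1:**
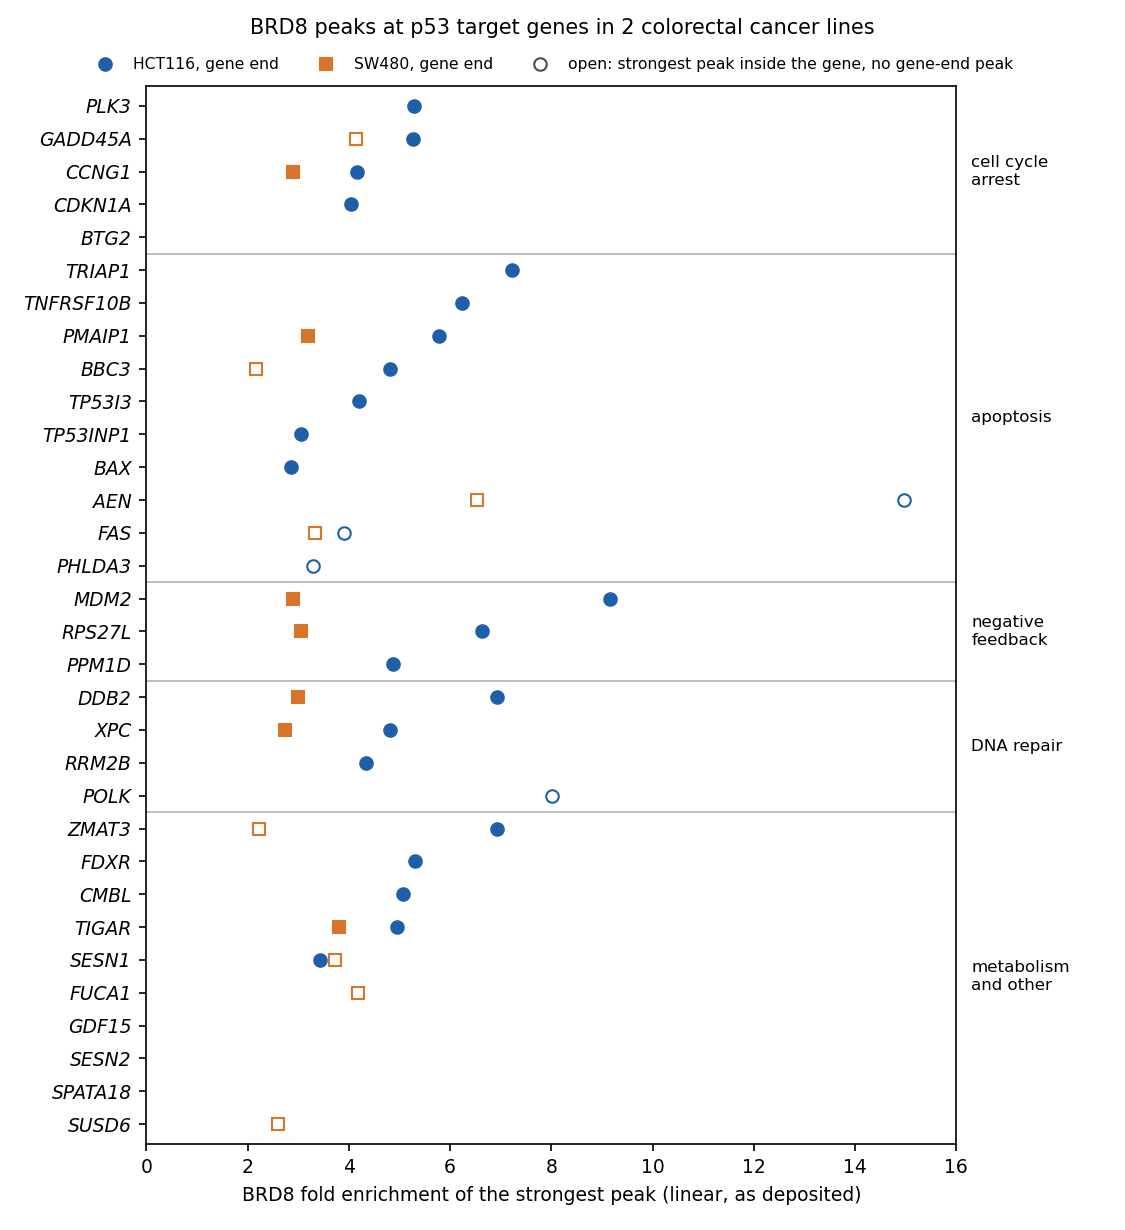
BRD8 fold enrichment (linear, as deposited) of the strongest gene-end peak of each p53 target in HCT116 (blue circles) and SW480 (orange squares), grouped by role, with open symbols for the strongest inside peak of genes without a gene-end peak in that line, and no mark where a line had neither. HCT116 has the higher fold at each of the 7 genes with a filled symbol in both lines, and AEN, an open symbol, stands highest at 15.0.

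Among 5 cell cycle arrest genes, HCT116 had 4 bound and SW480 1, beside 44.0% and 22.1% of all coding genes. Each role holds few genes, and differences between roles were not tested. CDKN1A, the cyclin-dependent kinase inhibitor through which p53 stops the cycle (chr6:36676463-36687332), had 3 HCT116 peaks. One at the gene end had a fold of 4.04 and 25 fragments, and one 154 bp upstream of the listed start had 5.04 and 32 fragments. The third, 1330 bp downstream of that start, had 2.66 and 20 fragments. The gene-end summit lay 2457 bp upstream of the listed start, because the gene table begins CDKN1A at an earlier start than the promoter table. In SW480 the nearest summit to CDKN1A was 26521 bp away.

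PLK3, a stress-responsive kinase, had a HCT116 fold of 5.29 from 62 fragments and no SW480 summit within 24343 bp. GADD45A, a growth arrest gene induced by DNA damage, had 5.27 at its end in HCT116 and no SW480 gene-end peak. Inside GADD45A both lines had peaks that overlapped. Those of HCT116 had folds of 4.78 and 4.85, and the SW480 one had 4.14 from 29 fragments. CCNG1, a cyclin that directs a phosphatase to MDM2, was bound in both lines. Its HCT116 fold was 4.16 with a summit 265 bp downstream of a listed start. A SW480 peak overlapped it at 2.55, while the SW480 peak of highest fold, 2.90, lay at the other end of the gene, 20603 bp away. That far SW480 peak overlapped a wide HCT116 region with a fold of 10.5. The summit of this region lay 3125 bp beyond CCNG1 and within 1 kb of ends of NUDCD2 and HMMR. BTG2, an antiproliferative factor, had no summit in or at the gene. The nearest was 17533 bp away in HCT116 and 297422 bp in SW480.

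Among 10 cell death genes, HCT116 had 7 bound and SW480 1, beside 44.0% and 22.1% of all coding genes. TRIAP1, an inhibitor of apoptosis, had the highest gene-end fold among them at 7.23 from 69 fragments, at a summit shared with the adjoining gene GATC. SW480 had no summit within 83210 bp of TRIAP1. TNFRSF10B, a death receptor, had 6.24 at its end and 4.14 and 3.23 inside the gene, all in HCT116, with the nearest SW480 summit 20120 bp away. BBC3, which encodes the BH3-only protein PUMA, had 4.81 at its end. Its strongest HCT116 peak lay inside the gene, 5275 bp downstream of the listed start, with a fold of 7.58 from 45 fragments. The SW480 peak in BBC3 had 2.16 and overlapped a weaker inside peak of HCT116 at 3.15.

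PMAIP1, which encodes the BH3-only protein NOXA, was bound in both lines with summits in different places. HCT116 had 5.79 at 220 bp upstream and 6.12 at 1086 bp downstream of the listed start, and 3.33 at the far end. The SW480 summit at 625 bp downstream had 3.19 from 16 fragments and overlapped the HCT116 peak inside the gene, not the one at its start. TP53I3, a quinone oxidoreductase linked to oxidative stress, had HCT116 peaks at both ends, 4.21 and 3.58, and no SW480 summit within 150769 bp. The peak of 3.58 also lay within 1 kb of an end of FAM228B. TP53INP1, a stress-induced protein of autophagy and cell death, had 3.05 in HCT116. BAX, the pore-forming effector of mitochondrial apoptosis, had 2.85 from 20 fragments in HCT116, the lowest among the strongest HCT116 gene-end peaks of the 22 bound targets. Both lines had an overlapping peak 2386 bp (HCT116, 5.49) and 2393 bp (SW480, 3.22) beyond BAX.

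AEN, FAS and PHLDA3 were the cell death genes unbound at their ends in both lines, and each had a peak inside the gene. AEN, an apoptosis-enhancing nuclease, carried the strongest BRD8 peak of the whole list, with a fold of 15.0 and 92 fragments in HCT116 and 6.54 and 49 fragments in SW480. These summits lay 25 bp and 172 bp downstream of the listed start of AEN, and the HCT116 summit was 10916 bp from the nearest end of the gene in the gene table. Among coding genes with a summit within 1 kb of a listed start, 81 of 7542 had a higher HCT116 fold than AEN, and 136 of 3971 a higher SW480 fold. FAS, a death receptor, had 3.90 in HCT116 and 3.004 and 3.34 in SW480, within 1 kb of a listed start of FAS and of an end of ACTA2. PHLDA3, a repressor of AKT signalling, had 3.30 in HCT116 at 1011 bp from its end, just outside the window.

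The 3 genes that act back on p53 each had a HCT116 gene-end peak, and MDM2 and RPS27L also in SW480, beside 44.0% and 22.1% of all coding genes. MDM2 had the highest gene-end fold of the 32 genes in HCT116, 9.17 from 44 fragments, above that of 91.2% of HCT116-bound coding genes. In SW480 its fold was 2.90 from 32 fragments. RPS27L, a ribosomal protein homologue that binds MDM2, had 6.64 from 78 fragments in HCT116 and 3.05 from 39 in SW480. The summits of the lines were 84 bp apart at MDM2 and 18 bp at RPS27L. PPM1D, the phosphatase WIP1 that dampens p53 signalling, had 4.87 from 57 fragments in HCT116 under a region of 2851 bp, the widest of the list. No SW480 summit lay within 207376 bp of PPM1D.

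Of the 4 DNA repair genes, DDB2, RRM2B and XPC were bound in HCT116, and DDB2 and XPC in SW480, beside 44.0% and 22.1% of all coding genes. DDB2, which recognises ultraviolet lesions, had 6.92 from 52 fragments in HCT116 and 2.996 from 59 in SW480, with summits 9 bp apart. XPC, a damage sensor of nucleotide excision repair, had 4.81 in HCT116 and 2.75 in SW480. These summits were 711 bp apart, each within 1 kb of an end of the adjoining gene LSM3. The SW480 peak overlapped a second HCT116 gene-end peak, of 3.67, and was the weakest of the 7 with a −log10 q of 1.79. RRM2B, a ribonucleotide reductase subunit, had HCT116 summits at 632 bp and 270 bp from its end with 4.34 and 3.44. POLK, a translesion polymerase, had a HCT116 peak of 8.01 that lay 1321 bp from the table's gene end, but 204 bp downstream of the listed start and within 1 kb of an end of CERT1. SW480 had no summit within 107307 bp of POLK.

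Of the 10 metabolic and other targets, 5 were bound in HCT116 and 1 in SW480, beside 44.0% and 22.1% of all coding genes. ZMAT3, an RNA-binding regulator of splicing, had 6.92 from 44 fragments in HCT116. A SW480 peak of 2.23 from 34 fragments overlapped it, with a summit 1135 bp from the gene end and so outside the window. TIGAR, a phosphatase that slows glycolysis, had 4.95 and 3.66 in HCT116 and 3.81 and 3.04 in SW480, and each of these regions overlapped one of the other line. FDXR, the mitochondrial ferredoxin reductase, had 5.30 and 2.66 on either side of its start in HCT116, and CMBL, a hydrolase, had 5.07. SESN1, a sestrin that restrains growth signalling, had 3.43 in HCT116 at the outermost start, shared with CEP57L1. Its SW480 peak, 3.74, lay inside the gene 827 bp upstream of another listed start and overlapped no HCT116 peak.

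FUCA1, a lysosomal fucosidase, and SUSD6 had a peak in SW480 alone, inside the gene, with folds of 4.18 and 2.61. GDF15, a secreted stress cytokine, SESN2, a second sestrin, and SPATA18, a factor of mitochondrial quality control, had no summit in or at the gene. BTG2, described above, was likewise empty in both lines. The nearest HCT116 summits were 5200 bp from GDF15, 10544 bp from SESN2 and 206281 bp from SPATA18.

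The bound targets had HCT116 strengths near those of all bound genes. Their median fold was 5.01 (range 2.85 to 9.17, 22 genes), beside 4.87 over the 8793 HCT116-bound coding genes. Of the 22, 13 lay above that median by fold and 11 by −log10 q. The median pileup was 33.5 fragments beside 34, and the median width 1169 bp beside 1106 bp. In SW480 the 7 bound targets had a median fold of 2.996 (2.75 to 3.81), beside 3.40 over the 4415 bound coding genes, and a median −log10 q of 4.48 beside 6.86. Of the 22, 7 had at least 2 gene-end summits in HCT116 (31.8%, Wilson 16.4 to 52.7), beside 19.6% of bound coding genes. The strongest HCT116 gene-end summit was shared with an end of another coding gene at 3 of 22 (XPC, SESN1 and TRIAP1, 13.6%, 4.75 to 33.3), beside 32.0%. XPC alone of these 3 was bound in SW480, beside 52.1% of coding genes with a shared summit, and 6 of the other 19 targets were, beside 43.3%.

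Of the 22 targets bound in HCT116, 7 were also bound in SW480. This retained share was 31.8% (Wilson 16.4 to 52.7), beside 46.1% of all HCT116-bound coding genes. Over all coding genes, retention rose with HCT116 strength. When all bound coding genes were put in 10 equal bins of HCT116 −log10 q, 14.7% of the weakest bin (Wilson 12.5 to 17.1) and 93.9% of the strongest (92.1 to 95.3) were bound in SW480. The bins' shares, weighted by where the 22 targets fall, gave 46.6%, or 10.3 of 22 genes where 7 were counted. Both shares lie inside the targets' counting interval, so a difference was not detectable with 22 genes. By overlap, the strongest HCT116 peak met a SW480 region at 6 of 22 targets, ZMAT3 in place of XPC and PMAIP1, beside 44.1% of coding genes.

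The bins show which targets these were. In the ninth bin, where 75.2% of coding genes were retained, DDB2, MDM2 and RPS27L were bound in SW480 and TRIAP1 was not. In the eighth, at 67.8%, PLK3, PPM1D and ZMAT3 were all unbound in SW480. In the sixth, at 47.7%, CMBL and TNFRSF10B were unbound. In the fourth, at 30.1%, CCNG1 and XPC were bound and RRM2B was not. The strongest bin held 0 of the targets.

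**Figure D2:**
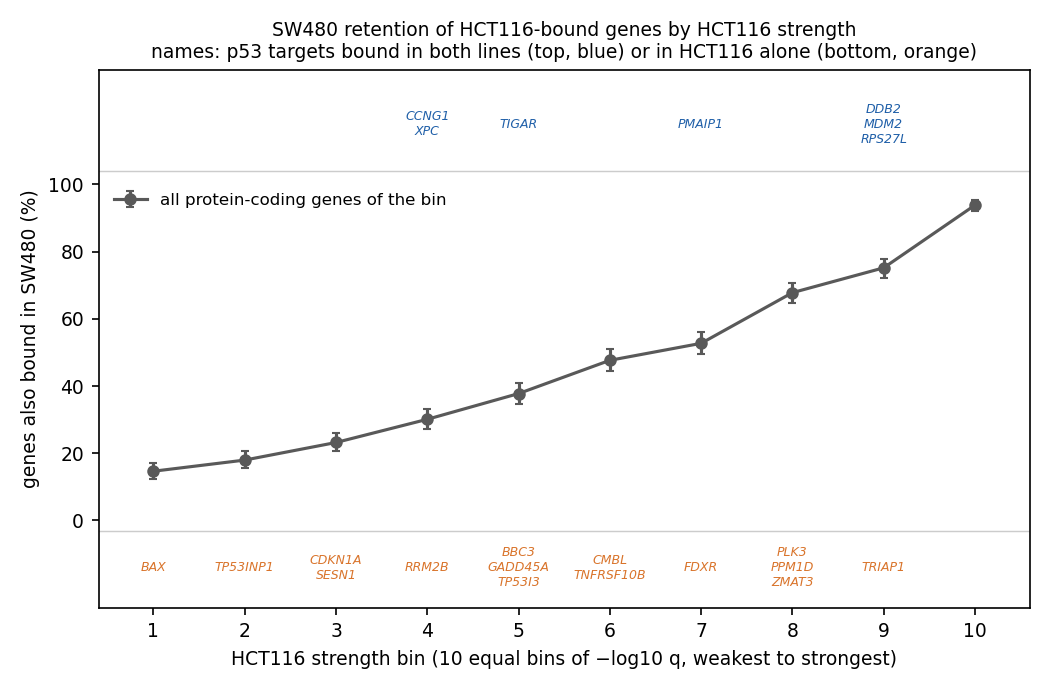
Share of HCT116-bound coding genes that also had a SW480 gene-end peak (vertical axis, %, bars are 95% Wilson intervals) across 10 equal bins of HCT116 −log10 q, with p53 targets named above where bound in both lines and below where bound in HCT116 alone. The share climbs from 14.7% to 93.9%, and the 7 retained targets spread from the fourth to the ninth bin.

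The retained share rested on which gene starts, and so which genes, were scored. Targets without a promoter entry drop out by listed starts. Of these, GADD45A, RRM2B, TNFRSF10B, TP53INP1 and CMBL were bound at an end in HCT116 alone. With the listed starts of the promoter table in place of the gene ends, 20 of 26 targets had a HCT116 summit within 1 kb (76.9%, Wilson 57.9 to 89.0), beside 47.7% of coding genes. In SW480 it was 11 of 26 (Wilson 25.5 to 61.1). The 11 were the 7 genes above with AEN, FAS, SESN1 and ZMAT3. Of the 20 targets with a HCT116 summit there, 11 had one in SW480 (55.0%, 34.2 to 74.2), beside 48.8% of coding genes and 55.0% after weighting by HCT116 strength. At SESN1 the lines used different listed starts. When the 32 genes were scored at a gene end or a listed start, HCT116 had 25 and SW480 11, beside 46.8% and 24.0% of coding genes. Of the 25, 11 were retained (44.0%, 26.7 to 62.9), beside 47.5%, or 50.6% at the same HCT116 strength.

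Of the targets with a summit within 1 kb of a listed start, most had the strongest one downstream. Summits of all coding genes also lay downstream more often than upstream, and the difference in share was not tested. In HCT116 the summit of highest fold was downstream at 13 of 20 targets (65.0%, beside 53.3% of coding genes with such a summit), and the median position was 131 bp downstream, beside 64.5 bp. In SW480 it was downstream at 8 of 11 (72.7%, beside 53.1%), with a median of 164 bp, beside 82 bp. DDB2, FAS, TRIAP1, MDM2 and RPS27L had HCT116 summits 161, 163, 169, 178 and 182 bp downstream. The SW480 summits of highest fold lay 94 bp downstream at MDM2, 152 at DDB2, 164 at RPS27L and 648 at FAS. The listed start itself was inside a HCT116 peak region at 23 of 37 member starts (62.2%), beside 30.9% of starts of all coding genes. For SW480 it was 2 of 37 (AEN and FAS, 5.41%), beside 7.79%. SW480 regions were narrower, with a median width of 358 bp at its 7 bound targets and 1169 bp at the 22 of HCT116. Over all bound coding genes the widths were 536 bp and 1106 bp.

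**Figure D3:**
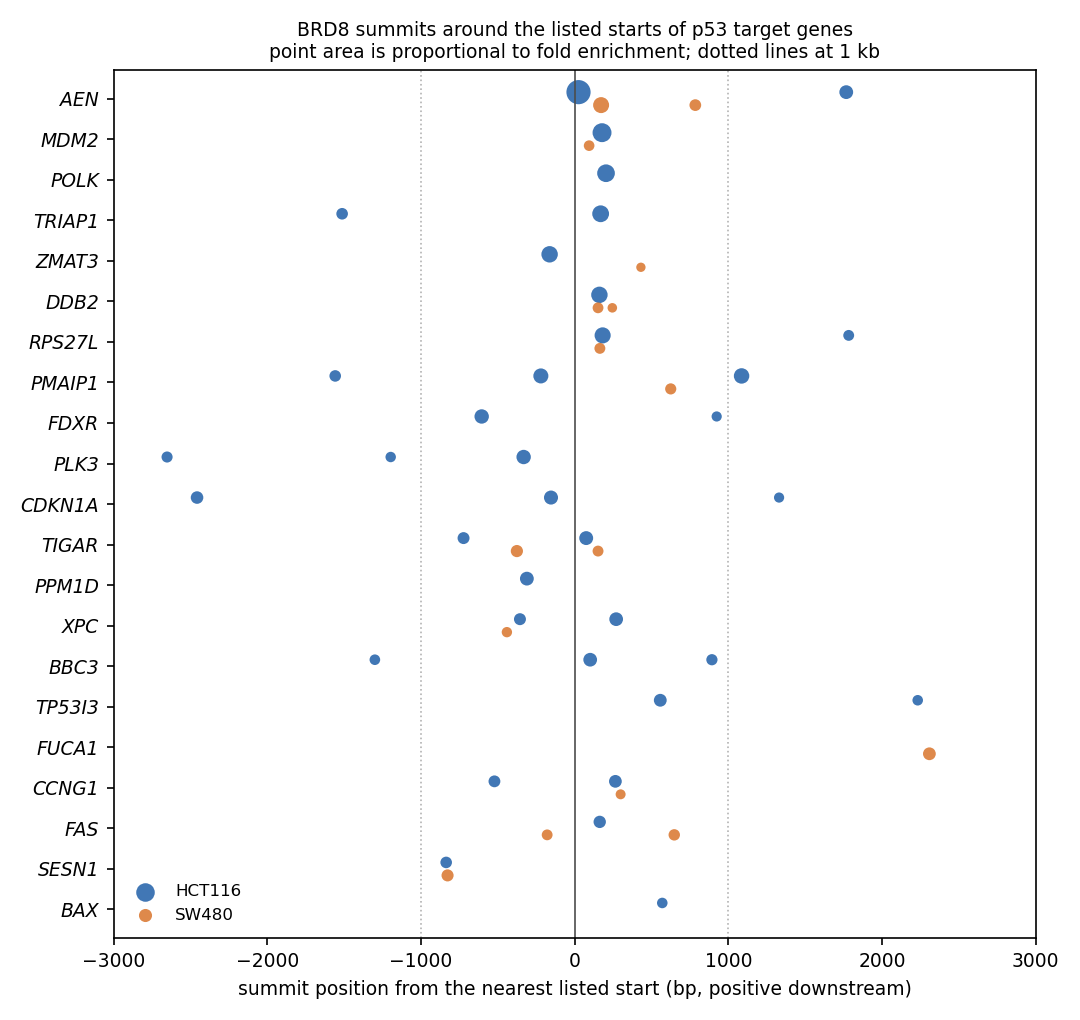
Position of BRD8 summits from the nearest listed start of each p53 target (horizontal axis, bp, positive downstream) for HCT116 (blue) and SW480 (orange), within 3 kb, with point area proportional to fold enrichment. AEN has its largest HCT116 point 25 bp downstream of the start. BAX, BBC3, CDKN1A, FDXR, PLK3, POLK, PPM1D, TP53I3 and TRIAP1 show HCT116 points alone, and FUCA1 a SW480 point alone.

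At the 7 targets bound in both lines, fold was lower in SW480 at 7 of 7, as it was at 92.4% of the 4053 coding genes bound in both. The median ratio of SW480 to HCT116 fold was 0.552 (range 0.316 at MDM2 to 0.769 at TIGAR), beside 0.558 over those genes. The pileup was lower in SW480 at 5 of 7, beside 59.9%, with a median ratio of 0.727 beside 0.897. The strongest peaks of the lines did not overlap at CCNG1, PMAIP1, TIGAR and XPC, so the ratios there set different peaks beside each other. At TIGAR the SW480 peak of 3.81 overlapped a weaker HCT116 peak of 3.66. The SW480 peak of 3.04 overlapped the HCT116 one of 4.95. At CCNG1, counted as lower, the SW480 value is that of the far end, and the SW480 peak over the HCT116 one had 28 fragments beside 27. The caller's local background was higher in SW480 at 6 of 7, beside 85.5%, with a median ratio of 1.24 beside 1.71. Pileups are not scaled to library depth.

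The parts of the ratio differed between genes. At DDB2 the pileup was 52 fragments in HCT116 (exact Poisson interval 38.8 to 68.2) and 59 in SW480 (44.9 to 76.1), while the background was 6.66 and 19.02. At MDM2 the pileups were 44 (32.0 to 59.1) and 32 (21.9 to 45.2) and the backgrounds 3.91 and 10.4. At these genes the pileup intervals overlapped and the background differed. At RPS27L the pileups were 78 (61.7 to 97.3) and 39 (27.7 to 53.3), which do not overlap, and the backgrounds 10.9 and 12.1. At PMAIP1 the pileups were 38 (26.9 to 52.2) and 16 (9.1 to 26.0), at different positions. TIGAR had the higher pileup in SW480, 39 beside 29, at summits 451 bp apart. The SW480 peak over that HCT116 peak had 31 fragments.

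**Figure D4:**
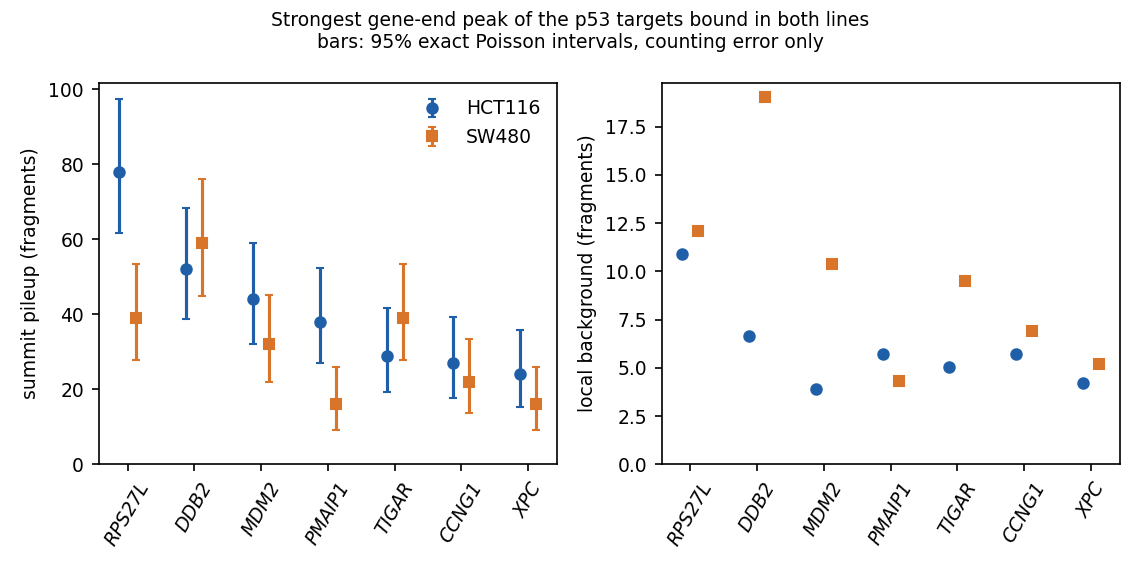
Summit pileup (left, fragments, bars are 95% exact Poisson intervals for counting error) and local background (right, fragments) of the strongest gene-end peak in HCT116 (blue circles) and SW480 (orange squares) at the 7 targets bound in both lines. RPS27L and PMAIP1 have separate pileup intervals, while at DDB2 the pileups of 52 and 59 sit beside backgrounds of 6.66 and 19.02. At CCNG1, PMAIP1, TIGAR and XPC the peaks of the lines did not overlap.

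Away from the ends, 14 of the 32 targets had a summit inside the gene in HCT116 (43.8%, beside 23.0% of coding genes) and 8 in SW480, beside 12.5%. At an end or inside together, it was 26 targets in HCT116 (81.3%, beside 52.3%) and 15 in SW480 (46.9%, beside 29.8%). The inside counts take in summits within 1 kb of a listed start at AEN, BBC3, CDKN1A, FAS, POLK, SESN1 and ZMAT3. The other summits inside targets had folds from 2.33 at RRM2B to 7.58 at BBC3 in HCT116. Of these genes, GADD45A, PHLDA3, RRM2B and TNFRSF10B have no listed start. At each of them and at PMAIP1 an inside summit lay just outside the window, from 1011 bp (PHLDA3) to 1381 bp (RRM2B) from a gene end. Of the 10 SW480 peaks inside targets, 7 overlapped a HCT116 peak, beside 35.2% of such peaks over all coding genes. The 7 lay in AEN, BBC3, FAS, GADD45A and ZMAT3, and those in AEN, FAS and ZMAT3 were within 1 kb of a listed start. Of the 22 HCT116 peaks inside targets, 6 overlapped a SW480 peak, beside 16.5%. Of the 10 SW480 gene-end peaks of targets, 10 overlapped a HCT116 peak, beside 89.8%, and of their 29 HCT116 gene-end peaks 8 overlapped a SW480 peak, beside 39.2%.

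Most genes that act upstream of p53 had BRD8 at an end. Of 20 upstream regulators and cofactors, 18 were bound in HCT116 (Wilson 69.9 to 97.2%) and 12 in SW480 (38.7 to 78.1%), beside 44.0% and 22.1% of coding genes. Of the 18, 12 were retained (66.7%), beside 55.3% of coding genes at the same HCT116 strength. RPL5, a ribosomal protein that binds MDM2, had the highest folds at 21.4 and 5.58, followed in HCT116 by ATM, the damage kinase, at 12.1 and 4.58 and RPL11 at 11.99 and 5.54. MDM4, the partner of MDM2, had 4.97 and 4.80. The difference in share between regulators and targets was not tested.

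A further 35 reported p53 targets were scored in the same way. In HCT116 27 were bound (77.1%, Wilson 61.0 to 87.9), beside 44.0% of coding genes, and in SW480 9 (25.7%, 14.2 to 42.1), beside 22.1%. Of the 27, 9 were retained (33.3%, 18.6 to 52.2), beside 38.2% of coding genes at the same HCT116 strength. PIDD1, a scaffold of caspase activation, had the highest HCT116 fold at 10.5 and 5.02 in SW480, at a summit shared with RPLP2. TNFRSF10A, a death receptor, had 8.202 and 3.38.

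Common promoter motifs were spread over the target promoters. GGGCGG, on either strand, was present in 32 of 37 member windows (86.5%), beside 56.3% of all windows. CCAAT was present in 20 (54.1%, beside 34.6%). CACGTG was in 3 (8.11%, beside 8.34%), CCGGAAG in 4 (10.8%, beside 12.8%) and TTTGAA in 4 (10.8%, beside 12.4%). The NRF1 and YY1 consensus motifs were in 0 of 37, beside 1.505% and 1.18%. Some windows of 1 gene overlap, such as the 4 of MDM2, and the median GC content was 66.0% in member windows beside 62.3% in all.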

How the data were processed

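Trimmomatic 0.33, Bowtie2 2.4.1, MACS2 and deepTools are named as tools and GRCh38 as the build, per the submitters' processing notes. For the MACS2 version, read filters and duplicates, nothing was given in the sources used. The deposited peak lists hold, per peak, the fold ratio of ChIP signal to local background at the summit, the −log10 p and −log10 q of the summit (a q threshold of 0.05), a score that is 10 times the −log10 q in 99.816% of HCT116 and 99.977% of SW480 peaks, and the summit offset. The authors called peaks per library.

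Peaks on chromosomes 1 to 22 and X were kept, leaving out 9 HCT116 and 72 SW480 peaks elsewhere. Genes and starts came from RefSeq tables of GRCh38.p14, and strand from the promoter table, which covers 15812 of 19974 coding genes. Pileup and background were solved from fold and p, with a relative tolerance of 0.0001, for 99.996% of HCT116 and 99.99% of SW480 peaks, and the steps were tested on simulated peaks. Python 3.11.15, pandas 2.3.3 and scipy 1.17.1 were used. Where a share has an interval, it is a 95% Wilson interval. No test was made, since each line has 1 library. Members, lists and alternatives were chosen with earlier results of these data known. Every member is named, and of the other p53 lists the 3 of highest HCT116 fold with MDM4, apart from items that are not reported here. Alternatives covered the peak threshold, equal peak numbers, the window, listed starts, shared summits and the strength measure.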

Additional observations from a re-analysis of the deposited data

How the results depend on the processing

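Of 48 recomputed values, 11 moved: counts by more than 1.5 times, retained shares by more than the counting interval of the reported share allows, and the median ratio by more than 1 SD between targets. The other 37 stayed within these limits. With a −log10 q of at least 5 in both lists, 3 targets were bound in SW480 and 3 in both lines, and 15.0% of HCT116-bound targets were retained, beside 31.0% of coding genes at the same strength. A window of 5 kb gave 11 targets in SW480. The listed start alone, which covers 26 of the 32 targets, gave 11 in SW480, 11 in both lines and 55.0% retained, beside 55.0% at the same strength. A gene end or a listed start gave 11 in SW480 and 11 in both lines; this setting and the overlap of regions were chosen after seeing the data. The median SW480 to HCT116 ratio was 0.552 by fold and 0.727 by pileup. The targets' retained share lay below that of coding genes at the same strength in every setting where both were computed, except the listed start alone, where they were equal. These settings score the same genes in the same libraries, so their shared direction is not independent support, and the difference was not tested. No paired analysis was possible because each line gave 1 library. Pileups of 16 to 78 fragments at the strongest gene-end peaks limit the precision of a single peak, and no setting replaces a second library.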
